A study of Rattus norvegicus with 4 samples.

Results

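The purinergic receptors and ectonucleotidase described here are 10 genes, the P2X channels P2rx1, P2rx4 and P2rx7, the P2Y receptors P2ry1, P2ry2, P2ry6, P2ry12, P2ry13 and P2ry14, and the enzyme gene Entpd1. They were chosen by name, as all array probes whose RefSeq accession maps to one of these rat symbols. All 10 were measured, by 13 probes, out of 16500 named genes and 45280 probes. The cells were NR8383, an established alveolar macrophage line obtained by washing a normal rat lung, taken after 20 passages. There was 1 group of 4 biological replicates. Its cells were kept for 4 h in DMEM with 10% fetal bovine serum, under a condition marked ALI that the labels do not spell out. They had been grown with 15% serum and seeded for 48 h, carried no transgene or other treatment named in the labels, and were hybridised to 1 one-colour array each. With a single group no treatment was compared, so the data answer which of these genes were detected in the line and how far the arrays differed. With 1 array per culture, differences between cultures and between arrays cannot be told apart.

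Cells release ATP, ADP, UTP and UDP-sugars when they are stressed, damaged or activated, and purinergic receptors read these nucleotides at the cell surface. P2X receptors are cation channels opened by ATP. P2Y receptors are G-protein-coupled, with P2Y1, P2Y2 and P2Y6 signalling mainly through Gq and P2Y12, P2Y13 and P2Y14 through Gi. Ectonucleotidases end the signal by stripping phosphates from the nucleotides, and in macrophages the system is best known for guiding cells to dying neighbours and for the ATP-driven release of interleukin-1.

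Of the 10 genes, 7 were well above background on all 4 arrays (70%), against 53.1% of all named genes. These were the channel P2rx4, the Gq-coupled receptors P2ry1, P2ry2 and P2ry6, the Gi-coupled receptors P2ry12 and P2ry14, and Entpd1. P2rx7 was well above background on 1 array, and P2rx1 and P2ry13 on none, where 34.4% of named genes were on none. "Well above background" is the scanner software's flag for a spot brighter than its local background by a set margin. As a test across replicates, limma compared each probe with the 95th percentile of the negative control spots of its own array. It called the same 7 genes at an adjusted p under 0.05 and not the other 3, and 69.8% of named genes passed. The median excess over that percentile, taking each gene's brightest probe, was 4.03 log2 units for the 10 genes and 3.18 for all named genes. Both shares lie near or modestly above those of all genes, and with 10 genes nothing particular to them is read from that.

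**Figure D1:**
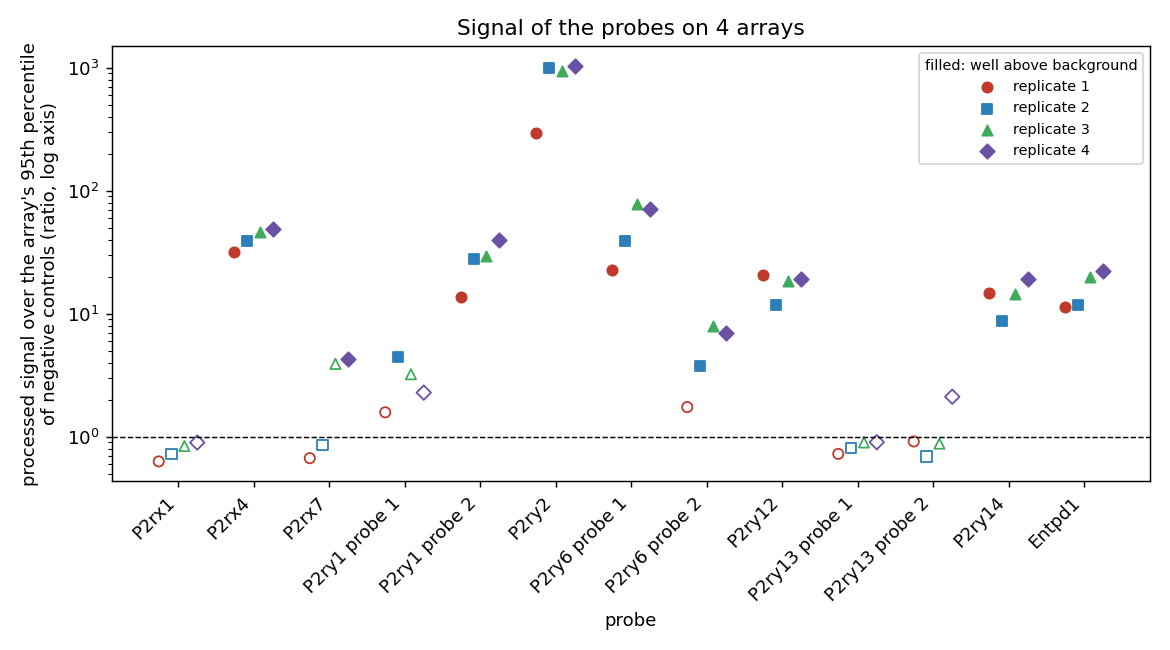
Processed signal of each of the 13 probes on the 4 arrays, divided by the 95th percentile of negative controls of the same array (log axis, dashed line at a ratio of 1). Filled symbols are well above background; P2ry2 lies between 295 and 1040, while P2rx1 and the first P2ry13 probe lie below 1 on all 4 arrays. Probes of 1 gene are numbered in order of their names, and heights of different probes cannot be compared.

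Several of these genes lie side by side in the rat genome, and P2rx4 and P2rx7, and likewise P2ry12 and P2ry13, differed in whether they were detected on all arrays, while P2ry2 and P2ry6 were both detected. In RefSeq's GRCr8 annotation no other protein-coding gene lies between P2rx4 and P2rx7 on chromosome 12, or between P2ry2 and P2ry6 on chromosome 1. On chromosome 2, P2ry12 and P2ry13 are adjacent within a stretch that the gene Med12l overlaps, and P2ry14 lies on the same chromosome. The array's own annotation is on the older build rn4, so only the gene order is used from GRCr8. The 250 bases before the annotated start are given for 5 genes, because they set a detected gene beside one of the same chromosome and receptor class that was not detected on all arrays, P2rx4 beside P2rx7 and P2ry14 beside P2ry13, and because P2ry2 had the largest SD between arrays of the 7 genes detected on all of them. They are RefSeq sequences of build GRCr8, written 5′ to 3′ on the gene's strand. Capitals mark matches, searched on both strands, to the TATA box (letters TATAAA), the CCAAT box (letters CCAAT), the GC box (letters GGGCGG), the core of sites of the myeloid factor PU.1 (letters GAGGAA) and the AP-1 site (letters TGANTCA). No marked match overlaps another.
P2rx4, chr12:39523090-39523339, minus strand: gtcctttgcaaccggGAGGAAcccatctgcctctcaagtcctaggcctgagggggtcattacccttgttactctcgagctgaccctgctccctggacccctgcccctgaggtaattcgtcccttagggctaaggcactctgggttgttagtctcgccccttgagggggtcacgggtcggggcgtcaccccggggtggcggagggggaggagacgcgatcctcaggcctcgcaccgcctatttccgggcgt
P2rx7, chr12:39594923-39595172, minus strand: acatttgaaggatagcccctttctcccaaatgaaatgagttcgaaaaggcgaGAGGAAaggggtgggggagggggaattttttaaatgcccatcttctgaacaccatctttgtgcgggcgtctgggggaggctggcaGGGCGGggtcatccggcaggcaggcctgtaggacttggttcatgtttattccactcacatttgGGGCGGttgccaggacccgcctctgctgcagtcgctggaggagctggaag
P2ry2, chr1:164779489-164779738, minus strand: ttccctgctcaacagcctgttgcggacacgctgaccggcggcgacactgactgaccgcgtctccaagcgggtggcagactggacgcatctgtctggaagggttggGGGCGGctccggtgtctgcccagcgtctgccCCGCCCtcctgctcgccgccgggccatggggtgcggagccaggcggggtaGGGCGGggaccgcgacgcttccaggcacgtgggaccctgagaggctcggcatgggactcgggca
P2ry13, chr2:145622785-145623034, minus strand: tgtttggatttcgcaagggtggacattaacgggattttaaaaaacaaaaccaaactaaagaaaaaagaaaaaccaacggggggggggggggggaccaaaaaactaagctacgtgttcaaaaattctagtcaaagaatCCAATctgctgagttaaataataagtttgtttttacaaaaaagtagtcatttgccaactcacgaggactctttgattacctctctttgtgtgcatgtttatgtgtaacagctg
P2ry14, chr2:145538511-145538760, minus strand: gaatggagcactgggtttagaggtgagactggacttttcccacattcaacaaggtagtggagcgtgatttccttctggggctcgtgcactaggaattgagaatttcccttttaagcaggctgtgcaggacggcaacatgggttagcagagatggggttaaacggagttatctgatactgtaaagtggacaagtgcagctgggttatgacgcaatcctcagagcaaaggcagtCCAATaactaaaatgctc

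Of the 5 windows, those of P2ry2 and P2rx4 are the richest in GC. Bases G and C made up 71.2% of the P2ry2 window, 64% of P2rx4, 56% of P2rx7, 47.6% of P2ry14 and 37.6% of P2ry13, against a median of 51.2% over 33469 promoters of the same length. In windows not printed here, G and C made up 69.2% for P2ry1, 62% for P2rx1, which was on no array, and 48.8% for Entpd1. P2ry2 held 25 CpG pairs, against a median of 5 over all promoters, and 3 GC boxes. A GC box is held by 30.5% of all promoters. P2rx4 and P2rx7 each held 1 PU.1 core, found in 23.3% of promoters, and P2rx7 held 2 GC boxes as well. P2ry13 and P2ry14 each held 1 CCAAT match, found in 34% of promoters. None of the 5 windows held a TATA box (12.9% of promoters) or an AP-1 match (6.34%). A match is a description of the letters and not a measured binding site.

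Of the 3 P2X channels among the 10 genes, P2rx4 alone was well above background on all arrays. P2X4 is an ATP-gated channel that in macrophages sits largely in lysosomes and moves to the surface on stimulation. Its processed signal was 103, 130, 142 and 174 on replicates 1 to 4. The arrays themselves differed in brightness, with a 75th percentile of signal of 83.4, 112, 126 and 167. On the level scale used from here on, the log2 signal minus the log2 of the array's own 75th percentile, P2rx4 lay at 0.30, 0.21, 0.17 and 0.06 on replicates 1 to 4. Its mean was 0.19 ± 0.10 (SD, n = 4), the smallest spread of the 7 detected genes. The excess over negative controls was 5.35 ± 0.18 log2 units (SE, limma adjusted p = 2.24e-07).

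P2rx7, the channel that opens at high ATP and triggers the NLRP3 inflammasome in macrophages, was at the edge of detection. Its single probe gave signals of 2.17, 2.84, 11.99 and 15.5 on replicates 1 to 4. The software's own error for those spots was 2.18, 2.85, 4.04 and 3.33. Replicates 1 and 2 therefore equalled their error, replicate 3 was positive and significant only, and replicate 4 was well above background. Limma did not call the gene (0.82 ± 0.52 log2 units over the negative controls, SE, adjusted p = 0.129). Its estimate and SE rest in part on replicates 1 and 2, whose signals were no higher than their error. Without replicate 1 the gene was called (limma adjusted p = 0.0448), with replicate 2 still at its error. Over the other settings the adjusted p lay between 0.0853 and 0.347. The 2 arrays with signal were also the 2 with the most spots above background, 56.5% and 58.9% against 50.9% and 53.9%. The part of array brightness in this result was not tested, and the RefSeq accession of the probe does not say which transcript variants it sees.

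P2rx1, a fast-desensitising ATP channel known from platelets and smooth muscle, gave signals of 2.05, 2.40, 2.58 and 3.23 on replicates 1 to 4. Each was at the software's error for that spot and below the negative control percentile of its array, which lay between 3.07 and 3.60. The gene is not well above background, which bounds its signal on this probe and does not show that the transcript is absent. Limma gave -0.39 log2 units relative to the negative controls (adjusted p = 0.985), a value that rests only on signals no higher than their error.

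The 3 Gq-coupled P2Y receptors were all detected. P2ry2 encodes a receptor for ATP and UTP that in mice steers phagocytes towards apoptotic cells. Its signal was 958, 3317, 2881 and 3741 on replicates 1 to 4. These signals were 295, 998, 940 and 1040 times the negative control percentile of the array. Its level was 3.52 on replicate 1 and 4.89, 4.51 and 4.48 on the others, a mean of 4.35 ± 0.58 (SD, n = 4), with replicate 1 apart from the rest. The excess over negative controls was 9.52 ± 0.34 log2 units (SE, limma adjusted p = 3.16e-07).

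P2ry6 encodes the receptor for UDP, a nucleotide known to promote uptake of debris by microglia in rodents. The brighter of its 2 probes (A_42_P814235) gave 73.5, 129, 240 and 254 on replicates 1 to 4, and levels of -0.18, 0.20, 0.92 and 0.60. The mean was 0.39 ± 0.48 (SD, n = 4). Replicate 1 was again lowest, with replicate 2 next. The other probe (A_44_P1087098) gave 5.66, 12.5, 24.2 and 25.1 and was well above background on replicates 2, 3 and 4 only. The difference between the 2 probes held between 3.31 and 3.70 log2 units on the 4 arrays. On replicates 2, 3 and 4, where both were well above background, they moved in parallel. On replicate 1 the signal of 5.66 had a software error of 2.70, so the dimmer probe places that array only loosely. Limma called both probes, at 5.55 ± 0.33 (adjusted p = 3.86e-06) and 2.12 ± 0.38 log2 units (adjusted p = 0.00137).

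P2ry1, a receptor for ADP known from platelets, was detected by 1 of its 2 probes. That probe (A_64_P069051) gave 44.2, 92.7, 90.0 and 142 on replicates 1 to 4, or levels of -0.91, -0.27, -0.49 and -0.23 with a mean of -0.48 ± 0.31 (SD, n = 4). Replicate 1 was below the other arrays. The other probe (A_44_P421312) gave 5.13, 14.8, 9.88 and 8.22 and was well above background on replicate 2 alone. The difference between the probes ranged from 2.65 to 4.11 log2 units, the largest on replicate 4. On replicate 4, 77 detected probes were over 2 log2 units lower than the mean of replicates 1 to 3. The dim probe lies in the box drawn around their spots or within 5 spots of it, and no other probe of the 10 genes does. Its signal of 8.22 on replicate 4 had a software error of 3.80. The part of the box in the difference between the probes was not tested. Limma called both P2ry1 probes, the bright one at 4.69 ± 0.27 (adjusted p = 3.63e-06) and the dim one at 1.42 ± 0.27 log2 units (adjusted p = 0.00184). Such a split call, as for P2ry1 and P2ry6, was seen in 25.5% of the named genes that have more than 1 probe.

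Of the Gi-coupled receptors, P2ry12 and P2ry14 were detected and P2ry13 was not. P2Y12 is the ADP receptor of platelets and of resting microglia. P2ry12 gave signals of 66.9, 39.4, 57.0 and 68.7 on replicates 1 to 4, and levels of -0.32, -1.51, -1.15 and -1.29. The mean level was -1.06 ± 0.52 (SD, n = 4), with replicate 1 above the other arrays. The excess over negative controls was 4.10 ± 0.20 log2 units (SE, limma adjusted p = 1.29e-06). Of 5 measured platelet markers only Treml1 was well above background on all arrays, Pf4 and Gp1ba were on none, Ppbp reached 2 arrays and Gp9 3, and the summed signal of the list lay between 54.1 and 122. The 2 microglia markers reported, Tmem119 and Sall1, were on no array, with a summed signal between 7.02 and 14.3. The part of either cell type in the P2ry12 signal was not tested.

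P2ry14, the receptor for UDP-glucose and related UDP-sugars, gave 48.0, 28.8, 44.5 and 69.1 on replicates 1 to 4. Its levels were -0.80, -1.96, -1.51 and -1.28, with replicate 1 highest and replicate 2 lowest, as for P2ry12. The mean level was -1.38 ± 0.48 (SD, n = 4), and the excess over negative controls was 3.78 ± 0.23 log2 units (SE, limma adjusted p = 4.10e-06).

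P2ry13, an ADP receptor of haematopoietic cells, was not well above background by either of its 2 probes. Probe A_44_P1010416 gave 2.35, 2.69, 2.76 and 3.25 on replicates 1 to 4, each at the spot's own error. Probe A_44_P1102613 gave 2.97, 2.29, 2.70 and 7.61, of which replicate 4 was positive and significant and the others were at the spot's own error. The lower limma adjusted p of the 2 probes was 0.560.

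Entpd1 encodes CD39, the surface enzyme that turns ATP and ADP into AMP. Its signal was 36.6, 38.9, 60.7 and 80.1 on replicates 1 to 4, and its level -1.19, -1.52, -1.06 and -1.06. Replicate 2 was lowest and the other 3 arrays lay close together. The mean was -1.21 ± 0.22 (SD, n = 4), and the excess over negative controls was 3.96 ± 0.23 log2 units (SE, limma adjusted p = 3.77e-06).

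**Figure D2:**
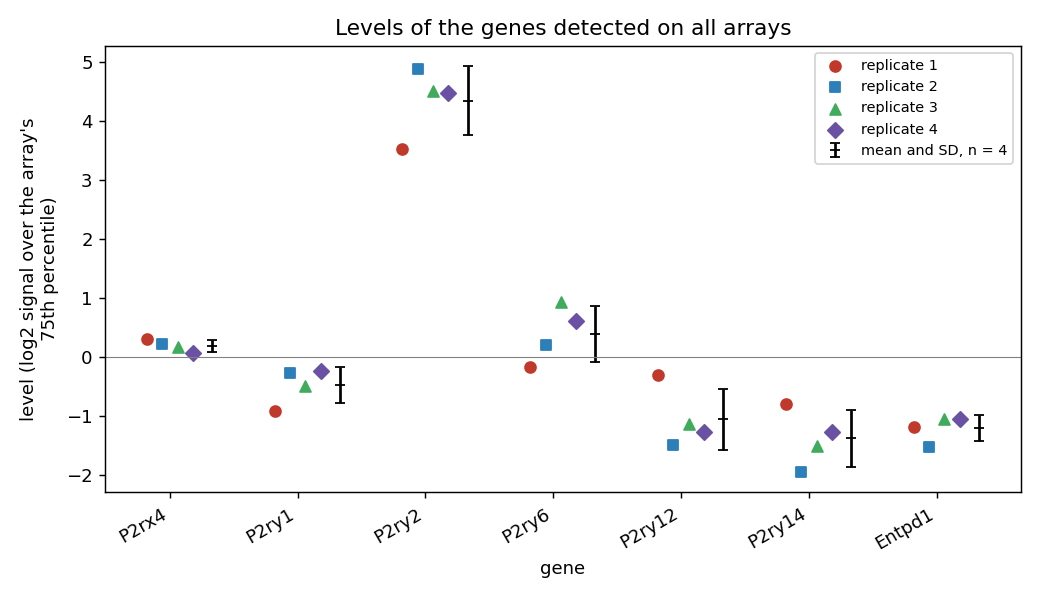
Level (log2 signal over the array's 75th percentile) of the 7 genes detected on all arrays, by replicate, with the mean and SD beside them (n = 4). Replicate 1 is the lowest array for P2ry1, P2ry2 and P2ry6 and the highest for P2rx4, P2ry12 and P2ry14. Heights of different genes cannot be compared.

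The detected genes spread more between the arrays than the median gene, a description with no test. The median SD between arrays was 0.48 log2 units for the 7 detected genes and 0.24 for all 8769 detected genes (interquartile range 0.15 to 0.36). It fell to 0.23 without replicate 1, where that of all detected genes was 0.15. With normexp background correction it was 0.225 against 0.196. Above the median of all genes lay 5 of the 7, and P2ry2 exceeded 93.5% of detected genes, P2ry12 90.9%, P2ry14 88.6% and P2ry6 88.4%.

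Among the P2Y receptors detected on all arrays, replicate 1 was lowest for the Gq-coupled and highest for the Gi-coupled genes. Across all detected genes it was lowest in 32.7% and highest in 42.4%. Relative to the mean of replicates 2 to 4 it was lower by 1.104 for P2ry2, by 0.76 for P2ry6 and by 0.58 for P2ry1, the 3 Gq-coupled receptors. It was higher by 0.996 for P2ry12 and by 0.78 for P2ry14, the detected Gi-coupled ones. The offset was 0.16 for P2rx4, a channel gene that was also highest on replicate 1, and 0.03 for Entpd1. The split of the P2Y receptors by coupling was not a planned result. In 6 of the 7 genes, all but Entpd1, replicate 1 was outside the range of the other arrays, as it was in 75.1% of all detected genes. For these 6 genes the sign was the same under each setting that changed the value, 9 to 11 per gene with the main one. Most of these settings could not change it. Leaving out replicate 2, 3 or 4 could not, since replicate 1 lay outside their range. The percentile over detected probes, keeping outlier spots and leaving out the box of dim spots each shifted all 7 offsets by a common amount. That amount was smaller than any of the 6 offsets. For genes with 1 probe only normexp and quantile normalization could have changed the sign, so the number of settings is no measure of stability. The P2ry2 offset ranged from -1.51 to -0.97 and the P2ry12 offset from 0.43 to 1.08. A single array stands on one side of this comparison, so it has no test.

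**Figure D3:**
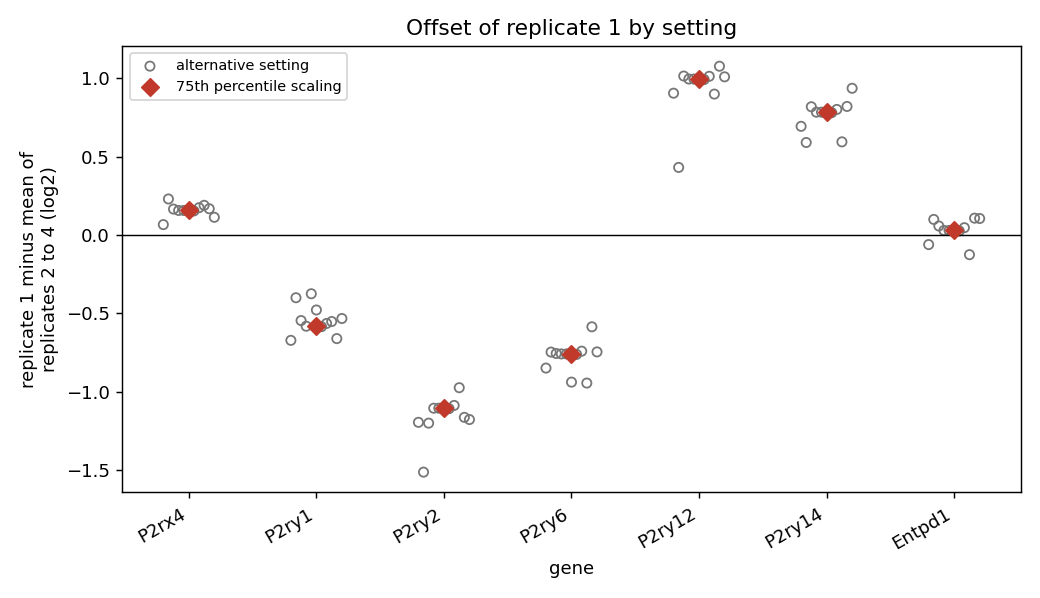
Level on replicate 1 minus the mean level on replicates 2 to 4 (log2 units) for the 7 detected genes, with the 75th percentile scaling (diamonds) and 11 alternative settings (open circles), of which the 3 on the choice of probe can move only P2ry1 and P2ry6. The 3 Gq-coupled receptor genes lie below 0 and P2ry12 and P2ry14 above 0 under every setting, while Entpd1 lies on both sides. Leaving out replicate 2, 3 or 4 could not change the sign of a gene whose replicate 1 lay outside their range. The percentile over detected probes, keeping outlier spots and leaving out the box of dim spots each shifted all 7 offsets by a common amount. That amount was too small to change any sign but that of Entpd1.

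Replicate 1 stood apart in many other genes too. It was the lowest array for 3 of the 7 genes, against 32.7% of all detected genes, and the highest for 3 of the 7, against 42.4%. An offset of at least 1 log2 unit downwards, as in P2ry2, occurred in 2.54% of detected genes, and one upwards in 4.15%. The median size of the offset was 0.76 for the 7 genes and 0.33 for all detected genes. Of 11 macrophage markers on all arrays, 7 were highest on replicate 1, among them the mannose receptor Mrc1 at 3.71 against 2.23 to 2.50 and the Fc receptor Fcgr1a at 5.66 against 4.34 to 4.63. The myeloid factor gene Spi1 was lowest there, at 3.64 against 3.77 to 3.89, and Cd68, at 7.42 against 7.21 to 7.58, lay within the range of the others. Replicate 1 also had the dimmest array. The part of these in the offsets was not tested, and in RNA from whole cultures fewer expressing cells and less RNA per cell cannot be told apart.

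Markers of macrophages were set beside those of other cell types, where 53.1% of named genes were on all arrays. Of 12 macrophage markers 11 were well above background on all arrays and Marco on 1, with a summed signal between 77121 and 121294. Of 26 measured markers of other cell types 3 were on all arrays (Treml1, Pecam1 and Cdh5) and 16 on none, with a summed signal between 274 and 590. Sums over different probes cannot be set against each other. Pecam1 and Cdh5 are 2 of the 3 endothelial markers measured, and Kdr, the other one, was on 1 array. Limma called 10 of the 26 by at least 1 probe, Gp9, Cd3g, Sftpc and Kdr among them, and all 12 macrophage markers, where 69.8% of named genes passed.

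Around the 10 genes, 34 of 37 other genes of nucleotide release, sensing and breakdown were measured. Of these 16 were well above background on all arrays (47.1%, against 53.1% of named genes), 7 on some and 11 on none. Limma called 24 of the 34 by at least 1 probe, where 69.8% of named genes passed. By role those on all arrays were 3 of 3 intracellular nucleoside diphosphatases, 5 of 6 genes of adenosine handling, 3 of 9 other ectonucleotidases, 2 of 6 genes of nucleotide release, and 1 each of 4 other P2X subunits, 3 other P2Y-type receptors and 3 adenosine receptors.

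Of the 4 other P2X subunits 1 was well above background on all arrays. P2rx3, a channel of sensory neurons, was on all arrays by 1 of its 3 probes, at a level of -2.44 ± 0.50 (SD, n = 4). P2rx6 was on 1 array, and P2rx2 and P2rx5 on none. Limma placed P2rx2 (adjusted p = 0.0150) and P2rx5 (adjusted p = 0.0379) above the negative controls, but not P2rx6 (adjusted p = 0.209). Of the other P2Y-type receptors Gpr17 was on all arrays, with signals of 113, 97.2, 88.8 and 97.6 and a level of -0.26 ± 0.53. P2ry10, a receptor of lymphoid cells, reached 2 arrays and the pyrimidine receptor P2ry4 none. On replicate 1 the Gpr17 level exceeded the mean of replicates 2 to 4 by 0.94, the side on which P2ry12 and P2ry14 lay. That side was common: of the 16 other purinergic genes on all arrays, 9 were highest on replicate 1, P2rx3 among them, and 4 lowest.

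Beyond Entpd1, the second step of ATP breakdown was measured as well. Nt5e, which encodes CD73 and turns AMP into adenosine, gave signals of 176, 201, 194 and 268 on replicates 1 to 4 and a level of 0.81 ± 0.20 (SD, n = 4). Enpp3, a nucleotide pyrophosphatase, lay at 0.24 ± 0.16, and the acid phosphatase gene Acpp, now named Acp3, at 0.81 ± 0.18. Entpd2 and Entpd3, relatives of Entpd1, and the alkaline phosphatase Alpl were well above background on 1 array each, and Entpd8, Enpp1 and Enpp2 on none. The intracellular relatives Entpd5, Entpd6 and Entpd7 were on all arrays, at 1.18 ± 0.07, 1.93 ± 0.35 and -2.22 ± 0.31.

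Adenosine, the end product outside the cell, is read by its own receptors and removed by uptake and conversion. Of 3 measured receptors Adora2b, which responds to high adenosine, was on all arrays, with signals of 52.3, 72.6, 104 and 96.2 and a level of -0.59 ± 0.22 (SD, n = 4). Adora2a was on 1 array and Adora1 on none. Adenosine kinase, Adk, lay at 2.36 ± 0.17 and adenosine deaminase, Ada, at -0.34 ± 0.36. The uptake carriers Slc29a1 and Slc29a2 lay at 0.55 ± 0.79 and -0.52 ± 0.30, and Slc29a3, named here after its values were seen, at 0.69 ± 0.38. Slc29a1 read 1.72 on replicate 1 and -0.05, 0.27 and 0.28 on the others, an offset of 1.55. Dpp4, which anchors adenosine deaminase at the surface in humans, was on no array.

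For nucleotide release, the volume-regulated anion channel subunit Lrrc8a lay at -0.54 ± 0.19 (SD, n = 4) and the vesicular nucleotide transporter Slc17a9 at -2.61 ± 0.30. The pannexin channel Panx1 was on no array, with signals of 3.04, 3.05, 2.77 and 5.94, and neither were Panx3 and the connexin Gja1. Panx2 was on 1 array.

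**Figure D4:**
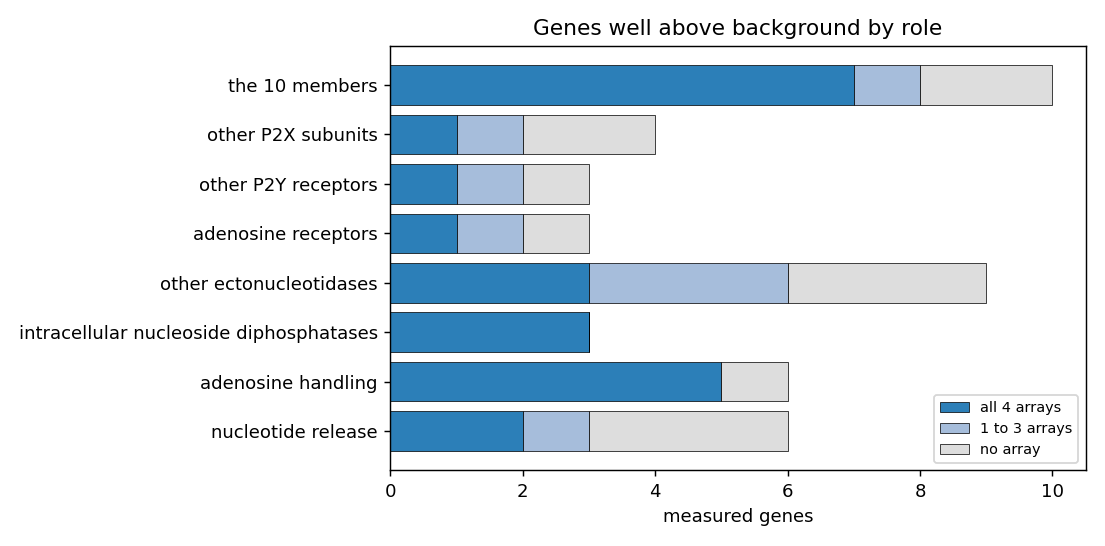
Number of measured genes well above background on all 4 arrays, on 1 to 3 arrays, or on no array, for the 10 genes (7, 1 and 2) and for 7 groups of other purinergic genes by role. All 3 measured intracellular nucleoside diphosphatases and 5 of 6 genes of adenosine handling were on all arrays.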

How the data were processed

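Total RNA, 100 ng per culture with an RNA integrity number above 7.5 per the labels' protocols, was labelled with Cy3 and read on 4 arrays of 1 slide. What the authors deposited are linear intensity values for each spot, per the file headers. They comprise a signal that the software had corrected for background, its error, and the median brightness of spot and surroundings, all unscaled between arrays. Quantification used Agilent Feature Extraction 11.0.1.1, per the submitters' processing notes. The deposited flags, 0 or 1 for each spot, were used as given. Each array held 62976 spots. After leaving out 4259 control spots, outlier spots (440 to 1206 per array) and 318 probes with all spots flagged on some array, 45280 probes remained, and no spot was saturated. Each probe of the 10 genes has 1 spot.

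Unversioned accessions were matched to RefSeq symbols of GRCr8. A gene was detected if any probe was well above background on all 4 arrays, and its level is the mean of its detected probes. Limma's test was one-sided and Benjamini-Hochberg adjusted over all probes. Its p-values weigh the mean excess over the negative control percentile against the spread between these arrays. The limma step was tested on simulated data. Slide and scan are shared by all arrays. The number of arrays limits the precision. The members and lists were chosen with earlier results of these data known, and 1 planned marker is not reported here. All 10 members are named. Of each group of other genes the first 4 on all arrays, on some and on none were named. R 4.3.3, limma 3.58.1, data.table version 1.17.8, Python 3.11.15, pandas 2.3.3, numpy 2.4.6 and matplotlib 3.10.9 were used.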

Additional observations from a re-analysis of the deposited data

How the results depend on the processing

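The count of 7 genes on all arrays did not rise with any 1 replicate left out, with the positive-and-significant flag or on at least 3 arrays. These settings could not lower it, since each only loosens the call for these genes. Keeping outlier spots could not change it, since no probe of these genes had an outlier spot. Stricter choices of probe could lower the count, and did. The count was 6 with the first probe taken for each gene, which leaves out P2ry1. It was 5 when every probe had to be detected, which also leaves out P2ry6. The count on no array was 2, and 1 with the positive-and-significant flag, where P2ry13 passed on 1 array. It was 3 without replicate 4, where P2rx7 joined. Limma called 7 or, without replicate 1, 8 genes. The number of other purinergic genes on all arrays lay between 15 and 21. The median SD of the 7 genes, 0.48, was between 0.23 and 0.56 with 1 replicate left out, lowest without replicate 1. It was 0.225 under normexp correction with an offset of 50, where that of all genes was 0.196, and the cause was not tested. Taking the percentile over detected probes shifted all detected genes by a median of -3.09, and normexp by -0.303, so levels hold only for their own scale. The offset of Entpd1 on replicate 1, 0.03, was -0.0606 with the percentile over detected probes, which lowered the offsets of all 7 genes by a common amount. It was between -0.12 (without replicate 2) and 0.11 with 1 of replicates 2 to 4 left out. Replicate 2 was the lowest array for Entpd1, at -1.52, so leaving it out raised the mean set against replicate 1. The offsets were recomputed under settings chosen after seeing the data. Of 66 recomputed levels that the setting changed at all, 52 moved by less than 1 SD. These include the levels with 1 replicate left out, which cannot move a mean of 4 arrays by 1 SD. The count is therefore no measure of stability. The level of P2ry1, -0.48, was -3.74 with the first probe and -2.11 with all probes, and that of P2ry6, 0.39, was -1.33 with all probes. Matching probes by gene name alone was not run, since the files used here carry accessions. The planned normexp on mean signals used median signals. No paired analysis was possible because there is 1 group. Single-spot probes give no spread within an array.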
